A study of Homo sapiens with 2 samples.

Results

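The receptors, kinases, transcription factor and feedback inhibitors of interleukin-6 (IL-6) family signalling were examined in Huh7 cells carrying a hairpin against CD133. The genes were IL6ST, IL6R, OSMR, LIFR, JAK1, JAK2, TYK2, STAT3, SOCS1 and SOCS3, taken by their symbol in the platform annotation, in which 20046 genes have a probe with 1 symbol. These 10 genes had 16 annotated probes, of which 12 had a value on both arrays, out of 19665 probes with a value in all. The 12 probes represent 8 of the 10 genes, since IL6R and LIFR had no value.

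Huh7 is an established human hepatocellular carcinoma line. One culture had received a lentivirus for a short hairpin RNA against CD133, the surface glycoprotein encoded by PROM1 (shCD133, 1 array). The other had received the lentiviral vector (vector, 1 array). Both grew in the same serum-containing medium, and the labels name no cytokine treatment, no number of hairpins and no time after infection. The series concerns the control of CD133 by STAT3 in liver cancer, and the arrays show which transcripts differ when CD133 is reduced. Values are the authors' processed log2 intensities from an Illumina bead array, on which a probe's value is the brightness of its beads. Because each condition had 1 array, no test was made, and every difference below (shCD133 minus vector, log2 scale) describes these 2 arrays.

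IL-6 family cytokines act through receptor complexes that share the signal-transducing chain gp130, the product of IL6ST. The receptor chains carry Janus kinases (JAKs) on their cytoplasmic tails. On ligand binding the kinases phosphorylate the receptor and then STAT3, which dimerises, enters the nucleus and activates its target genes. SOCS1 and SOCS3 are among the genes induced in this way, and their proteins bind the kinases or the receptor and shut the signal off. In hepatocytes this pathway drives the acute-phase response.

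The targeted gene was measured by 1 probe. PROM1 had a log2 intensity of 10.83 with shCD133, against 13.58 with the vector, and its unlogged intensity was 14.9% of that on the vector array. Among all 11579 named genes the median difference was 0.11, and the values from the 5th to the 95th percentile ran from -1.29 to 0.79. The lowest log2 value on either array was 6.65. Hepatocyte markers had a value for 7 of 8 genes, with log2 summed intensities of 17.13 with shCD133 and 17.01 with the vector. Macrophage and leukocyte markers had a value for 3 of 5 genes (PTPRC and CD163 were null), with log2 summed intensities of 12.98 with shCD133 and 13.02 with the vector. Of these CD14 differed by 1.60, LYZ by -0.17 and 1.51 on its probes, and CD68 by -0.09, 0.42 and 0.00. Stellate and fibroblast markers had a value for 3 of 5 genes (ACTA2 and DES were null) and endothelial markers for 1 of 4. The summed stellate and fibroblast level was 12.62 with shCD133 and 11.72 with the vector, most of it from COL1A2. The part of these markers in the differences below was not tested.

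Within the pathway, the receptor genes IL6ST and OSMR and the kinase JAK1 were lower with shCD133, whereas STAT3, the kinase TYK2 and the inhibitor SOCS1 were higher. A further receptor gene of the family, IL27RA, was higher by 0.83. The oncostatin M receptor OSMR was 2.56-fold lower. IL6ST and JAK1 were 1.80-fold and 1.84-fold lower. SOCS1 was 1.86-fold higher and STAT3 was 1.20-fold higher on its brightest probe. Of the 8 measured genes, 1 was at least 2-fold lower, beside 8.26% of all named genes, and 0 were at least 2-fold higher, beside 2.08%. At a 1.5-fold threshold 3 were lower (IL6ST, OSMR and JAK1), beside 16.3% of named genes, and 1 was higher (SOCS1), beside 12.3%. The median difference of the 8 genes was -0.01, with 4 genes below 0 and 4 above.

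**Figure D1:**
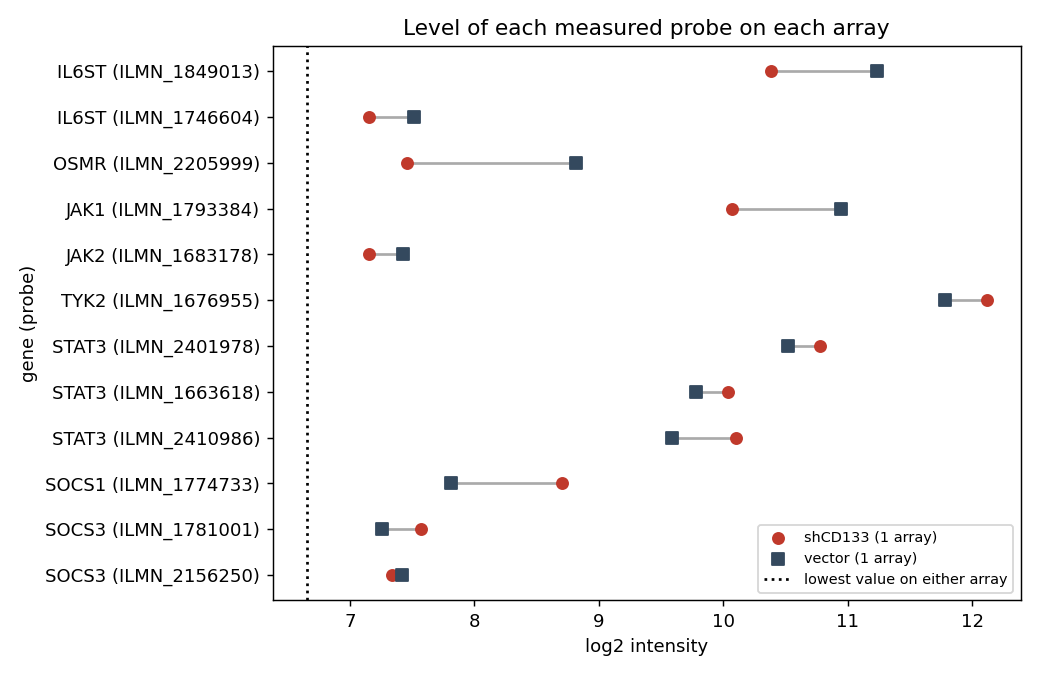
Log2 intensity (horizontal axis) of the 12 probes with a value, by gene and probe (vertical axis), on the shCD133 array (circles) and the vector array (squares). The dotted line is the lowest value on either array, 6.65. The circles of IL6ST, OSMR, JAK1 and JAK2 lie left of their squares, and those of TYK2, STAT3 and SOCS1 lie right of theirs.

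Without replicates, an error could be estimated only from genes with several probes, by how far their probes disagreed. Over 2907 genes with more than 1 probe, the SD of the difference was 0.34 per probe. It depended on brightness, with an SD of 0.40 where the dimmest value was under 8, 0.29 from 8 to 10, 0.18 from 10 to 12 and 0.12 above 12. Such disagreement arises from measurement and from probes that read different transcripts. It holds nothing on how cultures vary.

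IL6ST encodes gp130, the chain common to the receptors of the whole cytokine family. The gene lies on chromosome 5 (GRCh38.p14, 55935095 to 55994963). Its brighter probe, ILMN_1849013, read 10.39 with shCD133 and 11.23 with the vector, a difference of -0.85. Its second probe, ILMN_1746604, read 7.16 with shCD133 and 7.51 with the vector, a difference of -0.36. Both probes were lower with shCD133, and their differences lay 0.49 apart. The dimmer probe was near the lower end of the scale. The brighter probe is annotated to transcript record AB074172 and the dimmer one to NM_002184. The third IL6ST probe was null on both arrays.

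OSMR encodes the chain that pairs with gp130 to receive oncostatin M. The gene spans 38846012 to 38945579 on chromosome 5 and had a single probe, ILMN_2205999. Its log2 intensity was 7.46 with shCD133 and 8.81 with the vector, or 175.7 and 450.1 on the unlogged scale. The difference of -1.36 was the largest among the 8 genes and exceeded the SD of 0.40 that probes of this brightness have. The shCD133 value was itself close to the lower end of the scale. With the background subtracted the difference of OSMR was -2.00.

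IL6R, which encodes the chain that binds IL-6 itself, was represented by 2 probes and LIFR, the receptor chain for leukaemia inhibitory factor, by 1 probe. All 3 were null on both arrays. The sources used here do not give the filter that set probes to null, and 27658 of the 47323 probes in the table were null in the same way. No level of IL6R or LIFR can therefore be given for either culture.

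The 3 Janus kinases did not differ in the same direction. JAK1, the kinase on which gp130 signalling mainly depends, read 10.07 with shCD133 and 10.95 with the vector. Its difference of -0.88 was larger than the SD of 0.18 at this brightness, and the gene spans 64833229 to 65067746 on chromosome 1. JAK2, which also serves the erythropoietin and growth hormone receptors, read 7.15 with shCD133 and 7.43 with the vector. The JAK2 difference of -0.27 was smaller than the SD of 0.40 for probes this dim, so the arrays cannot be told apart for this gene beyond probe disagreement. JAK2 lies on chromosome 9, from 4984390 to 5129948.

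TYK2, a kinase shared with the type I interferon and interleukin-12 receptors, read 12.12 with shCD133 and 11.79 with the vector. Its difference was 0.33, above the SD of 0.18 at this brightness. The median named gene was higher by 0.11, and relative to it TYK2 was higher by 0.22. The TYK2 difference lay below the 75th percentile of all named genes, 0.39. The gene spans 10350533 to 10380572 on chromosome 19. Each kinase had 1 probe, so no second reading of any of them was available.

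STAT3 had more probes with a value than any other of the genes. ILMN_2401978 read 10.78 with shCD133 and 10.52 with the vector. ILMN_1663618 read 10.03 with shCD133 and 9.78 with the vector, and ILMN_2410986 read 10.10 with shCD133 and 9.59 with the vector. All 3 probes were higher with shCD133, by 0.26, 0.25 and 0.51, with a mean of 0.34. The first 2 are annotated to transcript NM_213662 and differed by nearly the same amount, and the third is annotated to NM_139276. The spread among the probes, 0.26, was as large as the difference on the brightest of them. The median named gene was higher by 0.11, and relative to it the brightest STAT3 probe was higher by 0.15. STAT3 spans 42313324 to 42388442 on chromosome 17. These are transcript levels, and phosphorylation of STAT3 is not measured by the arrays.

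**Figure D2:**
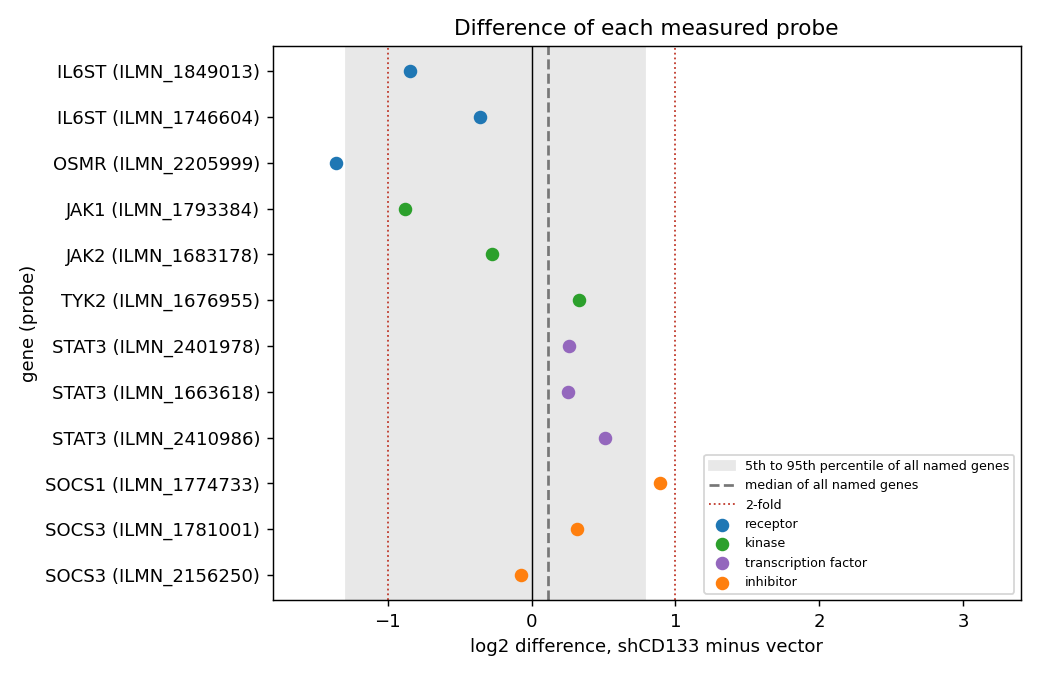
Log2 difference, shCD133 minus vector (horizontal axis), of the 12 probes with a value, by gene and probe (vertical axis) and coloured by role. The grey band runs from the 5th to the 95th percentile of all named genes (-1.29 to 0.79), the dashed line is their median (0.11) and the dotted lines mark 2-fold. OSMR lies left of the band and SOCS1 right of it, and the other 10 probes lie inside.

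SOCS1 encodes an inhibitor that blocks the kinase domain of the JAKs directly. It read 8.70 with shCD133 and 7.81 with the vector on its only probe, or 416.7 and 224.2 on the unlogged scale. Its difference of 0.89 was above the SD of 0.40 for probes with a value under 8. SOCS1 lies on chromosome 16, from 11254417 to 11256204. With the background subtracted the difference of SOCS1 was 1.25, past the 2-fold threshold.

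SOCS3 encodes the inhibitor that binds gp130 and JAK together and is the main brake on IL-6 signalling in the liver. Its probe ILMN_1781001 read 7.57 with shCD133 and 7.25 with the vector, a difference of 0.32. Its probe ILMN_2156250 read 7.34 with shCD133 and 7.41 with the vector, a difference of -0.08. The probes had opposite signs, both lay near the lower end of the scale, and neither difference exceeded the SD of 0.40. No difference in SOCS3 was therefore detectable in either direction. SOCS3 lies on chromosome 17, from 78356778 to 78360925.

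Promoter sequence was examined because STAT3 binds a palindromic element, TTCNNNGAA, in the genes that it activates. The windows came from RefSeq (GRCh38.p14) and run from 250 bases before to 50 bases after each annotated start. The element reads the same on both strands, so 1 search covers both, and no other motif was searched. It was present in 7.66% of 35116 windows of all genes and in 2 of the 18 windows of the 10 pathway genes, both belonging to LIFR. Counted by gene, 9.38% of 27305 genes with a window held it. It was also present in 3 of the 16 listed STAT3 target genes that had a window (BCL6, ICAM1 and IRF1). Among the listed acute-phase genes, 3 of the 12 with a window held it (FGA, HAMP and ITIH4). The lists hold 24 and 20 genes, and those left had no window in the sequences used. The differences of the genes holding the element were not all in 1 direction. FGA, with the match TTCCTGGAA at position -231, differed by -0.66 on its brightest probe, BCL6 by 0.13, and ITIH4 had no value. The windows of the member with the largest negative difference and of the inhibitors are shown first, with 1 of the 2 windows of SOCS3. They are followed by those of IRF1 and HAMP, the genes holding the element that the naming rule covers, both higher with shCD133. All are written 5′ to 3′ on the strand of the gene, in lower case, with the element in capitals. The OSMR window is chr5:38845762-38846061 (+), the SOCS1 window chr16:11256155-11256454 (-), the printed SOCS3 window chr17:78360876-78361175 (-), the IRF1 window chr5:132490724-132491023 (-) and the HAMP window chr19:35282278-35282577 (+).
OSMR: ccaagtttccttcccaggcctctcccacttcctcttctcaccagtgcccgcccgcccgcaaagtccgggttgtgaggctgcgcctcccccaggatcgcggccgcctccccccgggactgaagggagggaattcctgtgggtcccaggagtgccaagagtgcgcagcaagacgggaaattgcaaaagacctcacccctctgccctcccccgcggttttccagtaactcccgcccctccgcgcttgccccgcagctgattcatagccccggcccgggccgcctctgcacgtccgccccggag
SOCS1: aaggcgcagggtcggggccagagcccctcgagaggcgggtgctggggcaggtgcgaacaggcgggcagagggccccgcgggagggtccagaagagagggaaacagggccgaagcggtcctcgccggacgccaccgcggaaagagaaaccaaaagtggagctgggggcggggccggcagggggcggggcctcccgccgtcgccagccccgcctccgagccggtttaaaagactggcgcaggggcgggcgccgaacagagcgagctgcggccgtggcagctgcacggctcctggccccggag
SOCS3: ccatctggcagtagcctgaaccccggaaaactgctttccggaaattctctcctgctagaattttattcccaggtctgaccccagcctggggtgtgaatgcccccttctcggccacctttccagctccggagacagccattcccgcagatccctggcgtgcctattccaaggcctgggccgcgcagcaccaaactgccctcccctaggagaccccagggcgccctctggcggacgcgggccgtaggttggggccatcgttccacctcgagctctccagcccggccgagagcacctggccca
IRF1: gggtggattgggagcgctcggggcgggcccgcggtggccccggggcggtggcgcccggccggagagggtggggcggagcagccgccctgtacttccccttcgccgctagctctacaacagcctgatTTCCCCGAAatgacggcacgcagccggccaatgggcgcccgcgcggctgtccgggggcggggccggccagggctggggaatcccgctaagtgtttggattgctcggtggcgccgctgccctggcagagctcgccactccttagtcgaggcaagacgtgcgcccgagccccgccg
HAMP: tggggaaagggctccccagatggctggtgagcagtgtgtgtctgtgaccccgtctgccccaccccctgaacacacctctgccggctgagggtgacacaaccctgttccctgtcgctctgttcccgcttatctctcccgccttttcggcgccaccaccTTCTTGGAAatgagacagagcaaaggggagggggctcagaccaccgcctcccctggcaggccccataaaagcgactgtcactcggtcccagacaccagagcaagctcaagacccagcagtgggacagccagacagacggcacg

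These letters were absent from the OSMR and SOCS1 windows and from both SOCS3 windows. In IRF1 the match TTCCCCGAA begins at position -124 from the annotated start, and in HAMP the match TTCTTGGAA begins at position -93. A match describes the sequence, and nothing about binding was measured in the arrays.

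Most pathway genes with a negative difference were long genes. Genomic length was taken from RefSeq (GRCh38.p14) as the span from start to end. The 4 genes with a negative difference were 59.9 to 234.5 kb long, and the 4 with a positive difference were 1.79 to 75.1 kb long. The median length was 67.5 kb for the 8 measured genes and 27.4 kb for all named genes.

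All named genes with a length were divided by it into 10 groups of like size. The group with JAK1, the longest genes, had a median difference of -0.26, and 22.0% of its genes were at least 2-fold lower. In the group with OSMR and JAK2 the median was -0.16 and 17.8% were at least 2-fold lower. The group with IL6ST and STAT3 had a median of -0.07, and that with TYK2 a median of 0.11. The group of the shortest genes, with SOCS1, had a median of 0.26, and 5.09% of its genes were at least 2-fold higher. SOCS3 belonged to the next shortest group, which also had a median of 0.26. JAK2 and SOCS3 thus lay near the median of genes of their length, OSMR, IL6ST and JAK1 lay below it, and TYK2, STAT3 and SOCS1 lay above it.

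With the trend on length removed, OSMR differed by -1.20, IL6ST by -0.78 and JAK1 by -0.63. JAK2 then differed by -0.06, and SOCS3 by 0.03. SOCS1 differed by 0.61, STAT3 by 0.37 and TYK2 by 0.24. STAT3 was the only one of the 8 genes whose difference was farther from 0 after this step.

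**Figure D3:**
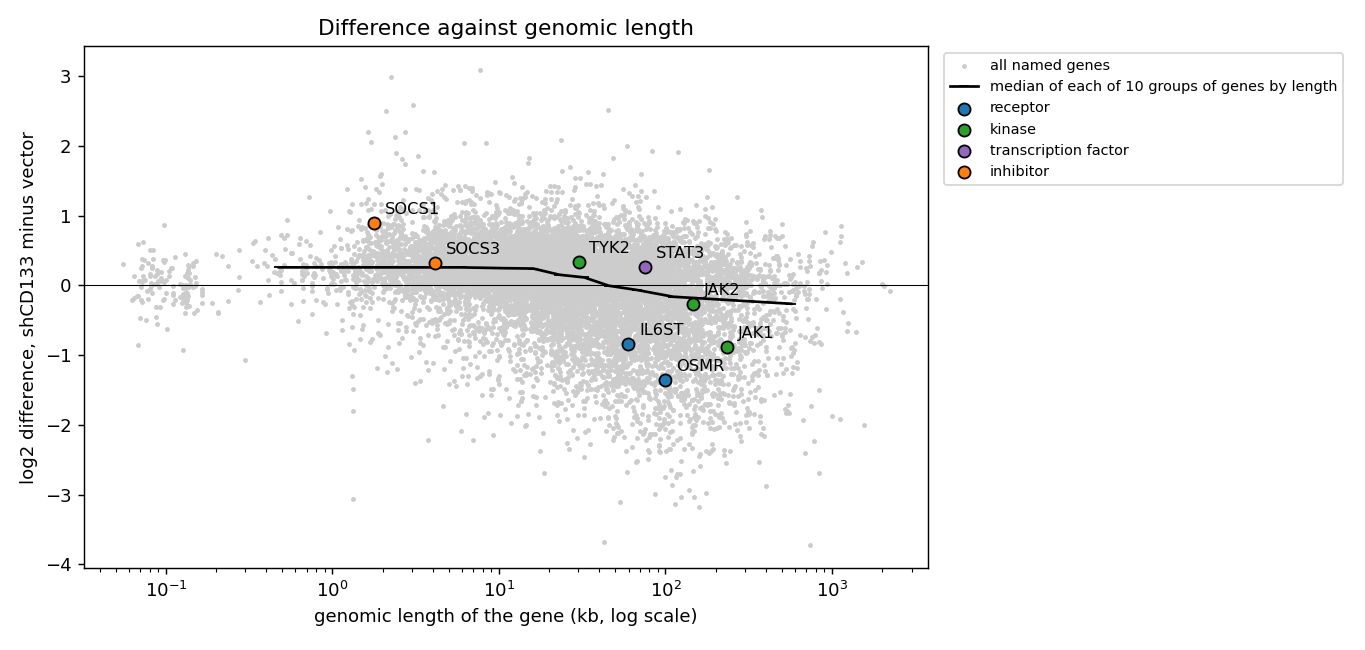
Log2 difference, shCD133 minus vector (vertical axis), against the genomic length of each gene in kb (horizontal axis, log scale), for all named genes (grey) and the 8 measured pathway genes (coloured by role). The black line joins the median differences of 10 groups of genes by length, from 0.26 in the shortest to -0.26 in the longest. SOCS3 and JAK2 lie close to the line, and OSMR, IL6ST and JAK1 lie below it.

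The remaining ligands and receptors of the family differed less than 2-fold as deposited. Of 11 listed ligands 5 had a value, with a median difference of 0.32. None was at least 2-fold different, beside 8.26% of all named genes lower and 2.08% higher. IL6 read 8.65 with shCD133 and 8.13 with the vector, a difference of 0.52. IL11 differed by 0.44, LIF by -0.34 and EBI3, a subunit of interleukin-27 and interleukin-35, by -0.33, all at log2 levels under 8 on both arrays. Of 4 further receptors only IL27RA, the interleukin-27 receptor chain that also signals through gp130, had a value. It read 8.98 with shCD133 and 8.15 with the vector, a difference of 0.83, which became 1.07, past 2-fold, with the background subtracted.

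The other JAKs and STATs differed little. Of 7 listed genes 4 had a value, with a median difference of 0.09. STAT4 differed by -0.47, STAT5A by 0.23, STAT6 by 0.13 and STAT5B by 0.04. The first of these had a value of 7.96 with shCD133 and 8.43 with the vector.

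Among other inhibitors of the pathway 12 of 13 genes had a value. Of these 2 were at least 2-fold lower, beside 8.26% of all named genes, and 0 were higher, beside 2.08%. The median difference was -0.14. The median length of these inhibitors was 55.0 kb, and in the length group of IL6ST and STAT3 12.4% of genes were at least 2-fold lower. SOCS4, a less studied member of the SOCS family, differed by -1.45 on its brighter probe, which read 8.68 with shCD133 and 10.13 with the vector. The other SOCS4 probe differed by -0.07. PIAS1, which inhibits STAT proteins in the nucleus, read 9.02 with shCD133 and 10.21 with the vector on its only probe, a difference of -1.19. SOCS5 differed by -0.99 on the brighter probe and by -0.02 on the other. SOCS2, which mainly restrains growth hormone signalling, differed by -0.96 and -0.59 on its probes. SOCS6 differed by 0.17 and SOCS7 by 0.06, values given to complete the SOCS family although the naming rule passes them over.

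Genes of proteins that couple gp130 to the MAP kinase branch had the lowest median of the lists, -0.96. Of 5 listed genes 4 had a value, 2 below 0 and 2 above, so this median describes no single gene. At least 2-fold lower were 2, beside 8.26% of all named genes, and 0 were at least 2-fold higher, beside 2.08%. PTPN11 encodes the phosphatase SHP2, which docks on gp130 at the site that SOCS3 also uses. It read 10.47 with shCD133 and 12.53 with the vector, a difference of -2.06 or 4.17-fold lower. SOS1, the exchange factor that activates RAS, read 7.22 with shCD133 and 9.26 with the vector, a difference of -2.04. GRB2, the adaptor that joins these proteins, was higher by 0.35 and 0.73 on its probes, and the adaptor SHC1 by 0.12 and 0.35. PTPN11 and SOS1 are 91.0 and 143.3 kb long. GRB2 is 87.6 kb long and SHC1 12.1 kb. In the length group that holds PTPN11, SOS1 and GRB2, 17.8% of genes were at least 2-fold lower. The part of length in these differences was not tested.

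**Figure D4:**
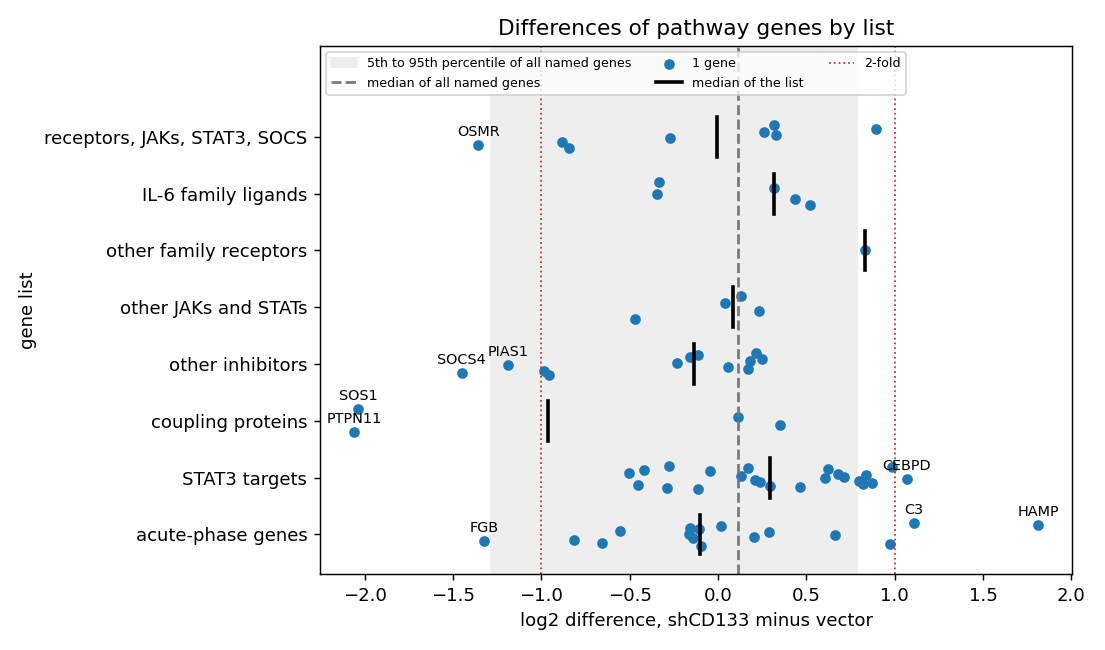
Log2 difference, shCD133 minus vector (horizontal axis), of each gene with a value, by gene list (vertical axis), with genes at least 2-fold different named. Black bars are list medians, the grey band runs from the 5th to the 95th percentile of all named genes, the dashed line is their median and the dotted lines mark 2-fold. PTPN11 and SOS1 are the lowest points and HAMP is the highest.

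Downstream of STAT3, 23 of 24 listed target genes had a value. Of these 1 was at least 2-fold higher, beside 2.08% of all named genes, and 0 were lower, beside 8.26%. Of the 23 genes 16 lay above 0 (59.2% of all named genes did), and the median difference was 0.29. At 1.5-fold, 10 were higher, beside 12.3% of all named genes and 18.7% of those in the length group of SOCS3, and 0 were lower, beside 16.3% of all named genes. CEBPD, a transcription factor of the acute-phase response, read 13.79 with shCD133 and 12.72 with the vector. The membrane mucin gene MUC1 differed by 0.99 and 0.85 on its probes. The kinase gene PIM2 differed by 0.87, and IRF1, whose promoter window is printed above, by 0.84. The listed targets are short genes, with a median length of 7.52 kb, and with the trend on length removed their median difference was 0.03.

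The hepatic acute-phase genes divided. Of 20 listed genes 16 had a value, with a median difference of -0.10. At least 2-fold higher were 2 of them, beside 2.08% of all named genes, and 1 was at least 2-fold lower, beside 8.26%. HAMP, the gene of the iron hormone hepcidin, read 9.34 with shCD133 and 7.53 with the vector, a difference of 1.81. The complement gene C3 differed by 1.11 and 0.58 on its probes, and SAA4 by 0.98. SAA1, given beside SAA4 although the naming rule passes it over, differed by -0.10. It read 7.34 with shCD133 and 7.43 with the vector, near the lower end of the scale. SAA4 has close relatives, and whether its probe also reads their transcripts was not tested. The fibrinogen chain gene FGB read 12.47 with shCD133 and 13.80 with the vector on its brighter probe, a difference of -1.32, and its other probe differed by -0.71. The other fibrinogen chain genes, named after their values were seen, were also lower with shCD133: the 4 probes of FGA differed by -0.66 to -0.96 and the 2 probes of FGG by -0.82 and -0.71. All 8 probes of these 3 genes were below 0, and the genes are 7.62 to 9.83 kb long.

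The 8 differences were recomputed under 6 other treatments of the values. JAK2 and SOCS3 had no value under the filter on dim probes. Every gene kept its sign in each treatment that gave it a value, with OSMR between -2.00 and -1.20, IL6ST between -0.99 and -0.60, JAK1 between -1.04 and -0.63, STAT3 between 0.11 and 0.37 and SOCS1 between 0.61 and 1.25. These ranges describe the processing of 2 arrays and do not stand in for replicates. The signs were partly fixed in advance. Background subtraction took the same amount from both arrays, so it could not reverse the difference of a probe. A gene with a single probe keeps its deposited value under the mean over probes and, where not removed, under the filter on dim probes.

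**Figure D5:**
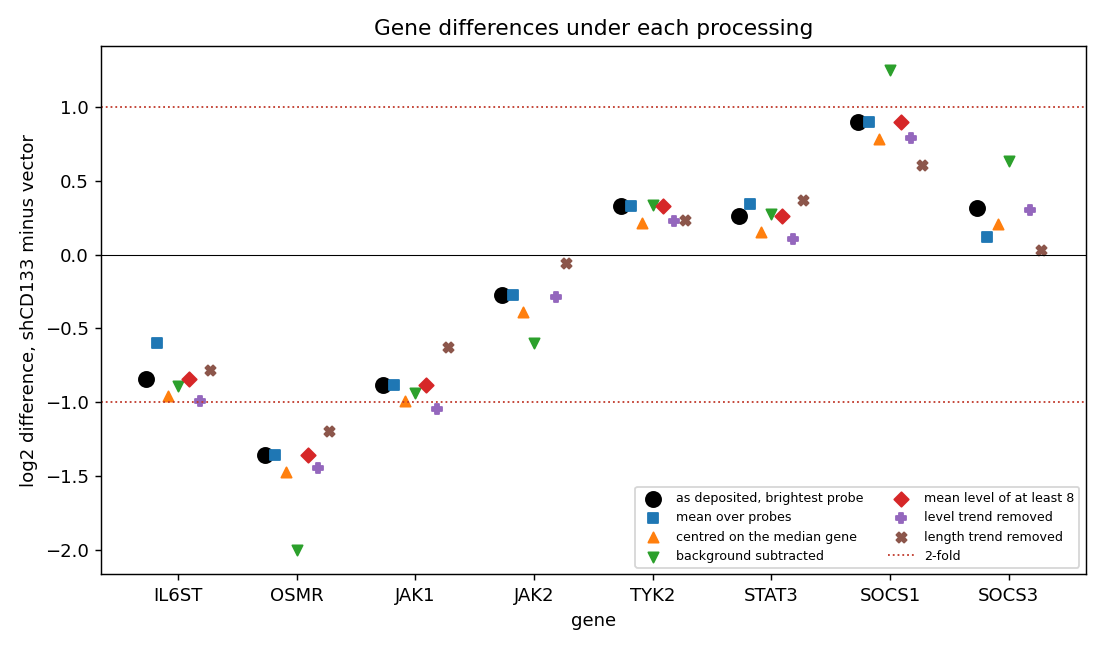
Log2 difference, shCD133 minus vector (vertical axis), of the 8 measured pathway genes (horizontal axis) as deposited (large black circles) and under each other treatment of the values (smaller symbols). The dotted lines mark 2-fold. OSMR is below the lower line throughout, and SOCS1 passes the upper line with the background subtracted.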

How the data were processed

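Values were the authors' deposited log2 intensities for 47323 Illumina probes on 2 arrays. The log base was read as 2 from their range, 6.65 to 15.6. The submitters' processing notes list GenomeStudio (2011.1) without a role. The sorted values of the arrays agreed within 0.00044, as after quantile normalization. Whether background was removed, and by which filter probes were set to null, is not stated there. The 4 value columns of a second deposited table could not be assigned to samples by name and were left out, so no detection call was available.

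Probes were named from the platform annotation of 2016. Of 19665 probes with a value, 15205 had 1 symbol, 2 several and 4458 none, and 15197 matched RefSeq (GRCh38.p14) by gene identifier. A gene took its probe with the highest mean (11579 genes, 11571 with a length). Genes were counted at a 2-fold difference, without a test. Replicates were absent, so precision is limited by the number of arrays.

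All 10 genes and PROM1 were named. In each pathway list, genes at least 2-fold different were named, with the largest differences up to 4 in all. Members and lists were chosen with earlier results of these data known. Alternatives were the mean over probes, a 1.5-fold threshold, centring on the median gene, background subtraction (lowest value less 16), a minimum mean level of 8, and removal of lowess trends (fraction 0.3, statsmodels 0.14.6) on level or length. The calculation was tested on simulated data.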

Additional observations from a re-analysis of the deposited data

How the results depend on the processing

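No paired analysis was possible because each group has 1 array. At 1.5-fold in place of 2-fold, 3 of the 8 pathway genes were lower and 1 was higher. Over the other pathway lists, with 65 genes measured, 9 were lower and 15 higher at 1.5-fold, against 5 and 3 at 2-fold. Of all named genes 16.3% were lower and 12.3% higher at 1.5-fold, against 8.26% and 2.08% at 2-fold. With background subtracted, 1 pathway gene was at least 2-fold higher (SOCS1, 1.25), OSMR differed by -2.00 and 8 genes of the other lists were higher. With the level trend removed, 2 pathway genes were at least 2-fold lower (OSMR and JAK1). Centring or removing the level trend left 1 gene of the other lists at least 2-fold higher. The 3 as deposited were HAMP (1.81), C3 (1.11) and CEBPD (1.07), and centring took 0.11 from every gene. The amount that the level trend took from each of them is not given here. Over all named genes, those at least 2-fold higher numbered 577 with background subtracted and 148 with the level trend removed, against 241 as deposited. The median difference of the 8 genes stayed between -0.16 and -0.01, and it was -0.29 over the 6 genes left by the filter on dim probes. Dim values limit JAK2, SOCS3 and the weaker IL6ST probe.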
